A study of Homo sapiens with 2 samples.

Results

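The erythroid membrane and blood group genes are 8 genes whose proteins build the surface of the red cell: XK, KEL, SLC4A1, RHAG, GYPB, GYPC, EPB42 and ANK1. They were chosen by name, with earlier results of these data known. A gene counts as measured where a probe carries its symbol alone in the platform annotation, with probes of a gene averaged. Of the 8, 6 were measured, among 18377 genes in all, each by 1 probe. GYPB and GYPC, which encode glycophorins, had no probe listed under a symbol, alias or gene ID of theirs in the annotation used here, so neither was analysed here. The measured genes lie on chromosomes X (XK), 17 (SLC4A1), 6 (RHAG), 15 (EPB42), 8 (ANK1) and 7 (KEL), so no pair of them shares a chromosome.

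The samples are K562 cells, an established human leukaemia line driven by the BCR-ABL1 kinase, known to make red cell proteins. One culture had erythropoietin (EPO) in its medium, a hormone that red cell precursors need to survive and mature. The label of the other names no EPO, and the growth protocol, which describes cells with and without it, makes this the culture without EPO. Both received imatinib, an inhibitor of the fusion kinase, at 2 µM for 6 h, and their total RNA was read on 1 whole-transcript array each. Each group is 1 array, so differences have no replicate check and were not tested, and a result for a gene is its log2 value with EPO minus its log2 value without EPO. Folds assume that the logarithm has base 2, which the labels do not state.

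The red cell membrane is tied to a skeleton of spectrin beneath it. The anion exchanger SLC4A1, which swaps chloride for bicarbonate so that blood can carry carbon dioxide, is held to that skeleton by the adaptor ankyrin, the product of ANK1, with the help of the EPB42 protein. RHAG, the Rh-associated glycoprotein, carries ammonium and is needed for the Rh blood group proteins RHD and RHCE to reach the surface. XK, a membrane protein of the scramblase type, is bound by a disulphide bridge to the Kell blood group protein KEL, an enzyme that cuts peptide hormones. Many of these genes are known targets of the erythroid factors GATA1 and KLF1, which bind GATA and CACCC letters in DNA.

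The sequences before the gene start are shown for the measured members that the RefSeq promoter table (GRCh38.p14) used here holds, since the members were compared for shared letters. Each is the 250 bases before the start, written 5′ to 3′ on the strand of the gene. Capitals mark the GATA letters AGATAA or TGATAA, or either of them read on the other strand (TTATCT or TTATCA).
RHAG, chr6:49636840-49637089, strand minus: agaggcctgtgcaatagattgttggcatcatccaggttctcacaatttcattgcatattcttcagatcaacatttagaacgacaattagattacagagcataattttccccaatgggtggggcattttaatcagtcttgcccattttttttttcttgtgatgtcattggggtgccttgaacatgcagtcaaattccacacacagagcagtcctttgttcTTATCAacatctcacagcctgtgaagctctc
EPB42, chr15:43221019-43221268, strand minus: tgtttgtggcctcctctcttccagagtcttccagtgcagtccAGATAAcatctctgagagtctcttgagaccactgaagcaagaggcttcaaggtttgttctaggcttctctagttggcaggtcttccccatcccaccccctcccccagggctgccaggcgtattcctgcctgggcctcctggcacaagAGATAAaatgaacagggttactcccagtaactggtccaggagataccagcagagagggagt
KEL, chr7:142962364-142962613, strand minus: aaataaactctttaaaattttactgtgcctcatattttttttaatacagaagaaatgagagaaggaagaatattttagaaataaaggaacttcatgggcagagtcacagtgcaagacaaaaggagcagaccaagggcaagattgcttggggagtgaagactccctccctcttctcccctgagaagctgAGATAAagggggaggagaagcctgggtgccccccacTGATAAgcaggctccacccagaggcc
The 3 sequences of 3 all held GATA letters, which were present in 14.9% of 27305 promoters of the same length. Counted back from the gene start, the matches began at base 31 in RHAG, at bases 208 and 61 in EPB42, and at bases 62 and 26 in KEL. The CACCC letters CCNCNCCC, on either strand, stood in all 3 sequences and in 52.4% of all promoters. The STAT letters TTCNNNGAA (6.78% of promoters), the motif class of the EPO signalling factor STAT5, and the E-box letters CANNTG (62.2%) were in none of the 3. A match is a stretch of letters and not a measured binding site.

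The deposited values are deviations from a baseline of the authors and not levels, so the arrays could show neither how abundant a transcript was nor whether the cells carry the red cell markers of their label. They spread unequally over the 28869 probes, with a standard deviation of 0.134 on the array with EPO and 0.431 on that without EPO. Of all genes, 6 lay 1 or more below the baseline with EPO and 612 without EPO (3.33%). The median difference of all genes was -0.047. It was 0.45 over 242 genes of cellular machinery, whose symbols mark subunits of such complexes as the proteasome, the nuclear pore and the respiratory chain, and -0.33 over 480 genes of families silent in most tissues, such as olfactory receptors. The part of this class difference in the values of single genes was not tested.

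All 6 measured members were higher with EPO as deposited, as were 45.4% of all genes, and 3 of the 6, XK, SLC4A1 and RHAG, were at least 2-fold higher. A 2-fold higher value was also found for 6.19% of all genes, while 0.898% of all genes and 0 members were lower by that much. The members' median difference was 1.02, against -0.047 for all genes. The count depended on the scaling: with the median of the machinery genes subtracted, 0 of 6 members and 0.756% of all genes were 2-fold higher, and ANK1 and KEL turned negative. With the median of the silent families subtracted, 4 of 6 members and 15.3% of all genes were 2-fold higher. At a threshold of 3-fold, 0 of 6 members and 0.365% of all genes were higher.

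**Figure D1:**
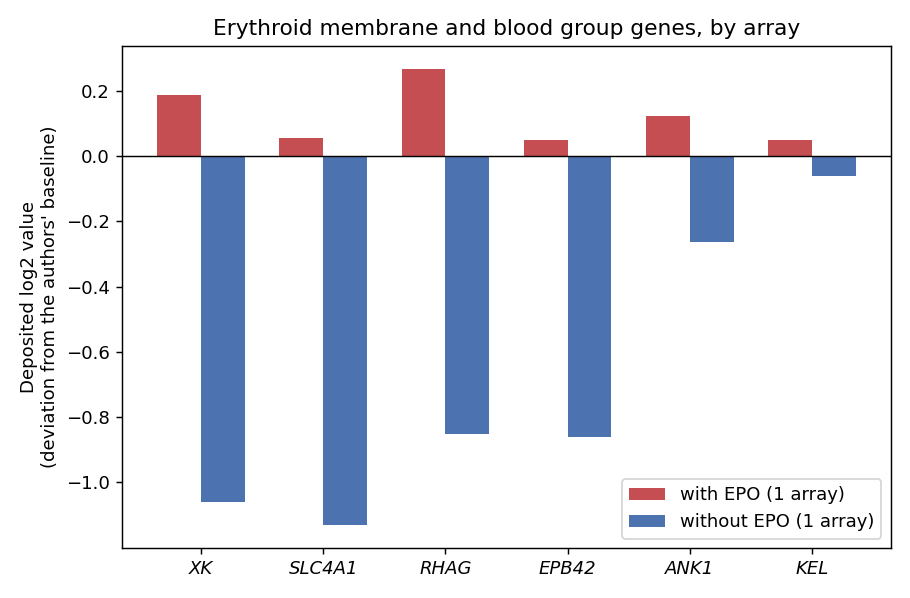
Deposited log2 value (deviation from the authors' baseline, y axis) of the 6 measured genes on the array with EPO (red, left bar of each pair) and the array without EPO (blue, right bar). All red bars lie above 0, from 0.048 to 0.27, and all blue bars lie below it, from -0.062 for KEL to -1.13 for SLC4A1.

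Among the genes of transport proteins, SLC4A1, that of the anion exchanger, stood at 0.057 with EPO and at -1.13 without EPO. The value without EPO was at percentile 1.82 of that array, and the value with EPO was at percentile 71.1 of its own. The difference was 1.19 (2.28-fold higher), at percentile 97.1 of all genes. RHAG stood at 0.27 with EPO, percentile 97.3 of that array, and at -0.85 without EPO, percentile 6.03. Its rank was thus high on the first array, where values spread less, and low on the second, with a difference of 1.12 (2.17-fold higher). A high rank with EPO was not particular to RHAG, since XK was at percentile 92.0 of that array and ANK1 at 83.9. The value without EPO made up 76.1% of the RHAG difference. Over the measured members this share ran from 56.0% (KEL) to 95.2% (SLC4A1). The differences of RHAG and SLC4A1 lay 0.067 apart, with no spread to set this against.

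The genes of the Kell complex gave unlike RNA values, and no protein was measured. XK, whose loss causes the McLeod syndrome of misshapen red cells and nerve disease, stood at 0.19 with EPO and at -1.06 without EPO. This was the largest difference of the 6, 1.25 (2.37-fold higher), at percentile 97.7 of all genes. KEL, the partner that XK holds by its disulphide bridge, stood at 0.048 with EPO and at -0.062 without EPO, close to the baseline on both arrays. Its difference was 0.11 (1.08-fold higher), at percentile 62.1, and 1.14 below that of XK. KEL and EPB42 each held 2 matches of the GATA letters in the sequences above and RHAG 1, with differences of 0.11, 0.91 and 1.12. Whether the matches bear on the differences was not tested. Genes of the VPS13 family of lipid transfer proteins were all within 2-fold (4 measured), as were 17074 of 18377 genes. VPS13A, whose protein binds XK, stood at 0.044 with EPO and 0.0049 without EPO. VPS13B had the largest difference of the family, -0.75.

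The genes of the proteins that join the membrane to its skeleton had graded RNA values. EPB42, related to transglutaminases but without their enzyme activity, stood at 0.050 with EPO and at -0.86 without EPO. Its difference of 0.91 (1.88-fold higher, percentile 91.9) fell just short of 2-fold, while RHAG at 1.12 was the nearest member past it. The difference of EPB42 lay 0.28 below that of its binding partner SLC4A1. ANK1, whose probe is annotated with 8 RefSeq transcripts and cannot separate erythroid from other forms, stood at 0.12 with EPO and at -0.26 without EPO. Its difference was 0.39 (1.31-fold higher, percentile 74.3), which was 0.80 below that of SLC4A1. SPTB, the beta-spectrin that ankyrin binds, also had a difference of 0.39. The others with values near ANK1 are many: 1207 other genes lay within 0.1 of it on both arrays, against 270 for XK, 272 for RHAG, 197 for SLC4A1, 479 for EPB42 and 2863 for KEL. With 2 values per gene, no gene could be picked out as most like a member.

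**Figure D2:**
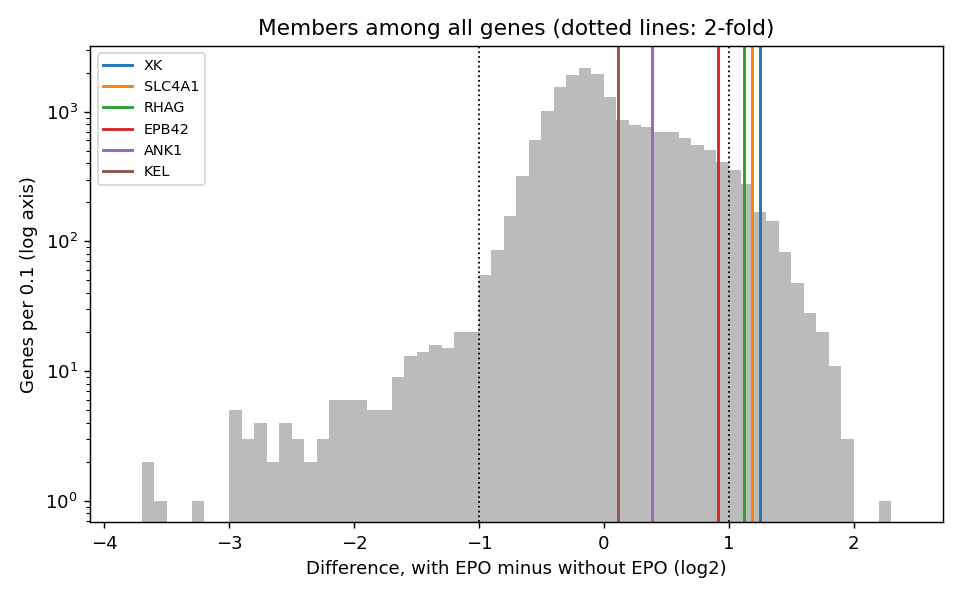
Number of genes per 0.1 of the difference with EPO minus without EPO (log2, x axis; log y axis) over 18377 genes, with a coloured line at each member and dotted lines at 2-fold. XK, SLC4A1 and RHAG lie between 1.12 and 1.25, EPB42 at 0.91 lies just inside the dotted line, and KEL at 0.11 and ANK1 at 0.39 lie well inside it.

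Each member was next set beside its relatives, the genes of similar sequence that mostly serve other tissues. Of 37 relatives measured, 1 was called higher and 0 lower at 2-fold (6.19% and 0.898% of all genes), and their median difference was -0.21, which became 0.12 with the median of the silent families subtracted. The 8 relatives of XK lay between -0.46 (XKR7) and 0.24, all below XK. The 9 other SLC4 bicarbonate and anion transporters lay between -0.52 (SLC4A3) and -0.020, all below SLC4A1. The relatives of RHAG were split. RHD stood at -0.0036 with EPO and -1.03 without EPO, a difference of 1.03 (2.04-fold higher), and RHCE stood at 0.034 with EPO and -0.70 without EPO, a difference of 0.73. RHD and RHCE carry the Rh antigens and are near-identical in sequence, so a probe of one may also read the other. In contrast RHBG and RHCG, the ammonium transporters of kidney and other epithelia, had differences of -0.32 and -0.11.

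The 8 transglutaminases set beside EPB42 lay between -0.43 and 0.65. The highest was TGM2, tissue transglutaminase, which stood at 0.014 with EPO and -0.63 without EPO, and whose difference was 0.26 below that of EPB42. ANK2 and ANK3, the ankyrins known from heart and nerve cells, had differences of -0.048 and -0.26, both below that of ANK1. KEL was the exception among the 6 members: its difference lay inside the range of its relatives, the zinc peptidases, which ran from -0.51 (ECEL1) to 0.19. ECE1 (0.19) and ECE2 (0.16), which process endothelin, were above it.

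**Figure D3:**
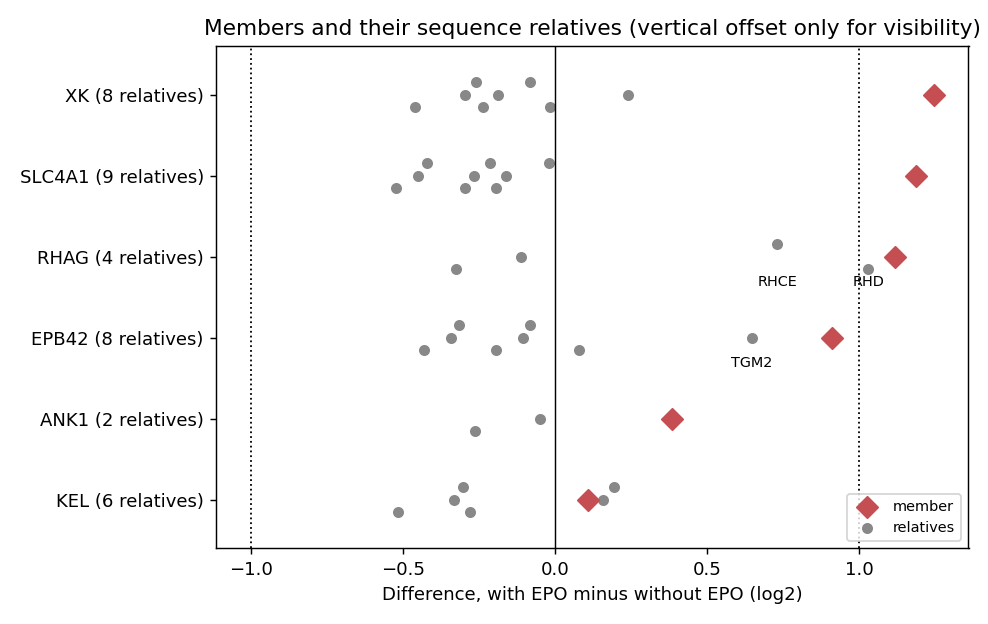
Difference with EPO minus without EPO (log2, x axis) of each member (red diamond) and of its sequence relatives (grey points), 1 row per member, with dotted lines at 2-fold. The diamonds of XK, SLC4A1, RHAG, EPB42 and ANK1 lie right of every relative in their row, while KEL lies inside its row, and RHD is the relative past the dotted line.

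Other genes of the red cell membrane were read from lists made by function. All 13 measured skeleton genes of 15 listed were above 0 as deposited (45.4% of all genes and 76.9% of the machinery genes). With the machinery median subtracted, 9 of 13 were above 0 (4275 of 18377 genes). Their median was 0.67 (0.22 with that scaling), and 1 was at least 2-fold higher against 6.19% of all genes. That gene was ADD3, an adducin, which caps actin filaments, at 0.34 with EPO and -0.72 without EPO, a difference of 1.06 (0.61 with the machinery median subtracted). Chosen after their values were seen, the adducins ADD1 and ADD2 had differences of 0.87 and 0.40 (0.42 and -0.046 with the machinery median subtracted). Also chosen so, EPB41 and DMTN, which bind spectrin and actin, had differences of 0.65 and 0.72 (0.20 and 0.27 with that scaling). TMOD1, which caps the other end of actin filaments, was lowest of the list at 0.17 (-0.28 with that scaling).

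The other protein blood group genes were mixed. Of 28 measured, 21 were above 0 (45.4% of all genes), 1 was called higher at 2-fold (6.19% of all genes) and 0 lower (0.898%). The called gene was RHD, described above, which was within 2-fold (0.58) with the machinery median subtracted. The list's median difference was 0.48 (0.026 with the machinery median subtracted). Named after their values were seen, AQP1, the water channel of the Colton group, stood at 0.074 with EPO and -0.91 without EPO, and ABCB6, the porphyrin transporter of the Langereis group, at 0.20 with EPO and -0.74 without EPO. The differences of AQP1 and ABCB6, 0.98 and 0.94, were close to that of EPB42. With the machinery median subtracted they were 0.53 and 0.49. CR1, the complement receptor of the Knops group, stood at -0.10 with EPO and 0.53 without EPO, and ACHE, the acetylcholinesterase of the Cartwright group, at -0.062 with EPO and 0.43 without EPO. These were the lowest of the list, with differences of -0.63 and -0.50.

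Genes of the enzymes that build sugar blood groups were listed with that of the lipid anchor enzyme PIGG. All were within 2-fold (10 measured), as were 17074 of 18377 genes. The median difference of this list was -0.17, which turned to 0.17 with the median of the silent families subtracted. GCNT2, which makes the I antigen, had the largest difference in size, -0.81, with -0.15 with EPO and 0.67 without EPO. Of 9 measured red cell transporters and related enzymes, 1 was called higher at 2-fold (6.19% of all genes) and 0 lower (0.898%), with a median of 0.43 that turned to -0.020 with the machinery median subtracted. It was the calcium pump ATP2B1, at 0.11 with EPO and -0.94 without EPO, a difference of 1.05 that was 0.59 with the machinery median subtracted. Named after its value was seen, SLC2A1, the glucose transporter GLUT1, had a difference of 0.80 (0.35 with the machinery median subtracted).

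**Figure D4:**
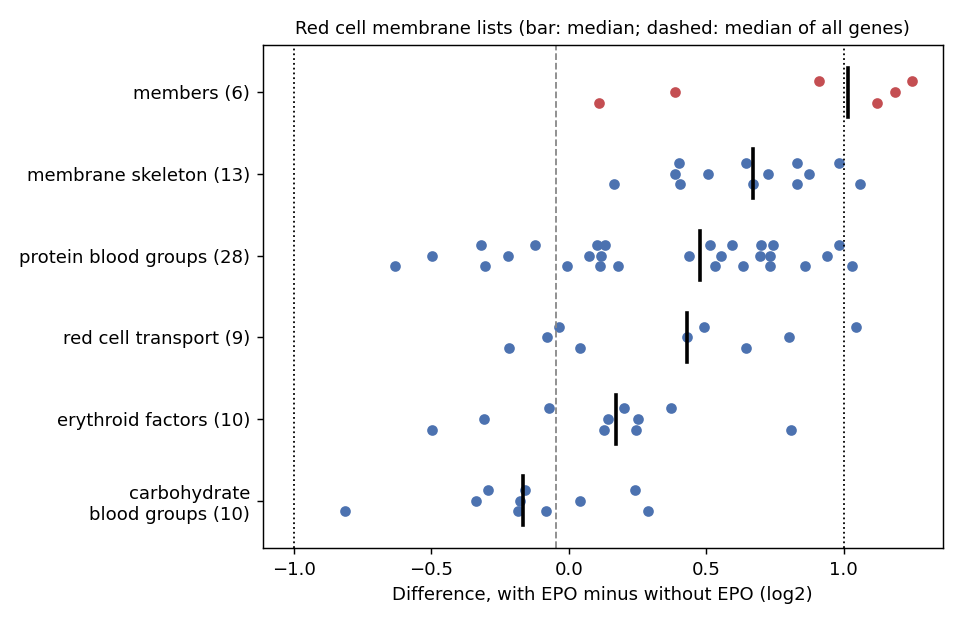
Difference with EPO minus without EPO (log2, x axis) of the members (red) and of 5 lists of red cell genes (blue), 1 point per gene, with the median of each list as a black bar, the median of all genes dashed and 2-fold dotted. Medians run from 1.02 for the members through 0.67 for the skeleton to -0.17 for the sugar enzymes.

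The erythroid factors numbered 10, of which 0 were called at 2-fold in either direction, a count near the share over all genes (6.19% higher and 0.898% lower). GATA1 had a difference of 0.25, from 0.025 with EPO and -0.23 without EPO, and KLF1 one of 0.24, from 0.042 with EPO and -0.20 without EPO. The list of 10 erythroid factors had a median of 0.17, which turned to -0.28 with the machinery median subtracted, and its largest difference was 0.81 for TAL1. Of the 10, 7 were above 0 as deposited (45.4% of all genes), and 1 with the machinery median subtracted (4275 of 18377 genes). Those below 0 as deposited were ZFPM1 (-0.50), BCL11A (-0.31) and LDB1 (-0.071). Markers of other blood cells had negative medians: -0.13 for 7 megakaryocyte genes, -0.33 for 8 granulocyte and monocyte genes and -0.23 for 7 lymphoid genes. All 3 medians turned positive with the median of the silent families subtracted, at 0.20, 0.0067 and 0.10. The largest difference in size was 0.94 in the megakaryocyte list, for TUBB1, a platelet tubulin. In the lymphoid list it was -0.67, for CD7, a T cell protein. TUBB1 stood at 0.071 with EPO and -0.87 without EPO, and its difference exceeded that of EPB42. Of the 8 granulocyte and monocyte genes, 1 was called higher at 2-fold (6.19% of all genes) and 1 lower (0.898%). These were LYZ, lysozyme, at 1.05 and the myeloid factor CEBPA at -1.07. The part of other cell types in the members' values was not tested, and a change in the share of more red-cell-like cells cannot be told apart from a change of RNA per cell.

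**Figure D5:**
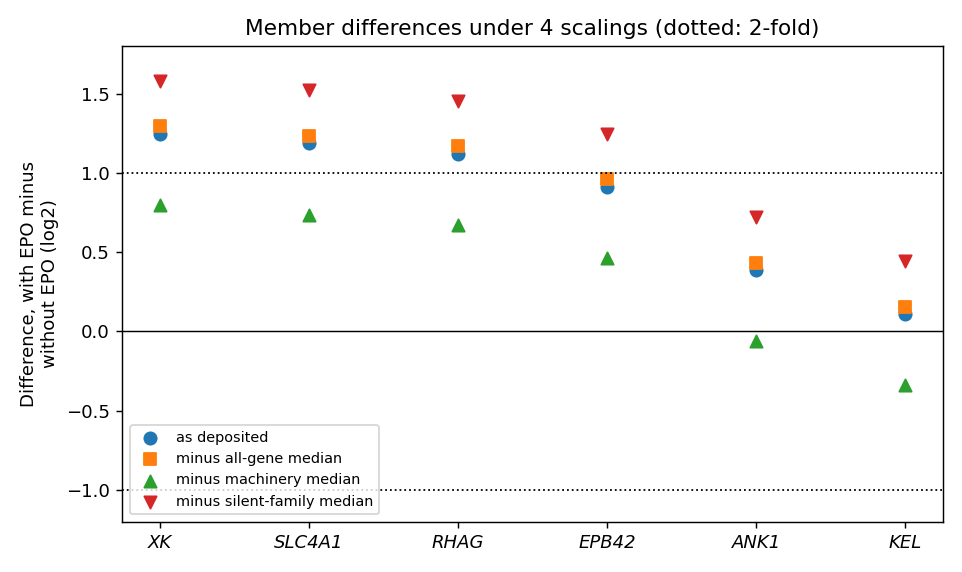
Difference with EPO minus without EPO (log2, y axis) of each member as deposited and after subtracting the median of all genes, of machinery genes or of silent families. With the machinery median subtracted XK, SLC4A1 and RHAG lie between 0.67 and 0.80, EPB42 at 0.46, ANK1 at -0.064 and KEL at -0.34. Each scaling subtracts 1 constant, so it cannot alter the order of the members.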

How the data were processed

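Total RNA of 2 K562 cultures was labelled and hybridised to Affymetrix Gene 1.0 ST arrays, 1 per group, per the labels' protocols. The authors deposited 1 value per probe and array, read here as log2. The values show that each probe was centred on a baseline, while the background correction, normalization, software and log base are not stated in the labels. Probes were named through the platform annotation: 19310 of 28869 carried 1 symbol, 1752 several and 7807 none. Symbols were updated by Entrez ID through a RefSeq gene table, and averaging over probes left 18377 genes. The difference with EPO minus without EPO was computed in Python 3.11.15 with NumPy 2.4.6 and pandas 2.3.3, and a gene was called at 2-fold, a difference of 1. The number of arrays limits the precision. The counting of genes past 2-fold was tested on simulated data, with planted differences well past the threshold and little noise. Its outcome was thus fixed in advance. It checks the arithmetic and says nothing on the precision of the real arrays. The members and the lists were chosen with earlier results of these data known. Named are the members and, in each list, genes past 2-fold or else the one with the largest difference. Further names, such as GATA1, KLF1, SPTB, ECE1 and ECE2, were chosen with their values known. Alternatives were other scalings, probe rules and thresholds, and the mean over members.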

Additional observations from a re-analysis of the deposited data

How the results depend on the processing

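Of 86 recomputed values, 67 kept their direction and side of the threshold or, for counts, stayed within 1.5 times. The probe rules could change no value or count of the members, since each has 1 probe and is named by no probe of several genes. Those entries among the 67 were thus fixed in advance and say nothing on robustness. With the machinery median subtracted, the members' median difference was 0.57, below 2-fold, 0 members were 2-fold higher, XK, SLC4A1 and RHAG were within 2-fold (0.80, 0.74 and 0.67), and KEL (-0.34) and ANK1 (-0.064) turned negative. With that scaling 139 genes of all were higher and 1044 lower, against 1138 and 165 as deposited. With the silent median subtracted, 2812 were higher and 101 lower, and EPB42 passed 2-fold at 1.24. The mean over the members was 0.83, below 2-fold. At 3-fold, 0 members, 67 genes higher and 68 lower were called, and at 1.5-fold 3333 higher and 854 lower, as thresholds of other size must give. With probes of several genes included, 255 genes were lower. The scaling shifts follow from the medians subtracted, and which scaling is right was not tested. No paired analysis was possible because each group has 1 array. The levels behind the centred values are unknown, so no filter on dim probes could be applied.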

Other observations

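The nearest measured protein-coding gene on each side of each member, by the order of the RefSeq gene table, was read after the members' values had been seen. Of these 12 neighbours, 2 were at least 2-fold higher with EPO (6.19% of all genes) and 0 were lower by that much (0.898%). Above 0 were 5 of the 12 (45.4% of all genes). The median difference of the 12 was -0.047, the same to 2 digits as that of all genes. The neighbours past 2-fold were LANCL3, beside XK, and CCNDBP1, beside EPB42. LANCL3, of the lanthionine synthetase-like family, stood at 0.59 with EPO and -0.46 without EPO, a difference of 1.05. On the array with EPO, 3 of 18377 genes stood higher above the baseline than LANCL3, whereas the members lay between 0.048 and 0.27 there. CYBB, a subunit of the phagocyte oxidase on the other side of XK, stood at 0.19 with EPO and -0.34 without EPO. CCNDBP1, which binds D cyclins, stood at -0.0020 with EPO and -1.03 without EPO, a difference of 1.03 that exceeded the 0.91 of EPB42. TGM5, on the other side of EPB42, had a difference of -0.32. NKX6-3, a homeobox gene beside ANK1, stood at -0.20 with EPO and 0.69 without EPO, a difference of -0.89, while KAT6A on the other side had one of 0.78. Both neighbours of RHAG, C6orf141 and CRISP2, had differences of -0.29.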
